A study of Mus musculus with 3 samples.

Results

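The suppressors of cytokine signalling are a family of 8 genes, Socs1 to Socs7 and Cish, and each was found by its symbol among the 32285 genes of the deposited matrices. They were measured in single cells by droplet RNA-seq of transcript 3' ends. The source was full-thickness dorsal skin of wild type C57BL/6J mice, labelled female and 8 weeks old, in 3 libraries, 1 per condition. The paper gives this age for the mice as purchased, and their age when skin was taken is not stated. CON skin received no irradiation, UV skin was irradiated on alternate days over 12 weeks with UVA (315 to 400 nm) at 0.60 mW/cm2 together with UVB (290 to 315 nm) at 3.5 mW/cm2, and Rux skin received the same irradiation followed each time by a 1.5% ointment of ruxolitinib, an inhibitor of the kinases JAK1 and JAK2. CON and UV skin received the ointment base of DMSO in Aquaphor without the drug, and skin was taken 1 day after the last exposure. The number of mice behind each library is not given in the sources used here, so no comparison has a replicate check, and no p-value is given. After filtering and doublet removal 10777, 10231 and 9299 cells of CON, UV and Rux remained, with a median of 7549, 7669 and 9438 UMIs, the molecular tags that each mark 1 captured transcript.

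The libraries went against the labelled sex. The Y-linked gene Ddx3y lay at 110, 115 and 121 CPM (UMIs of the gene scaled to a total of 1e+06) in CON, UV and Rux, while 13, 14 and 13 UMIs of Xist, which is expressed from the inactive X chromosome of females, were counted among all cells. All 3 libraries showed this alike, so it does not separate the conditions. Few cell barcodes were shared between libraries, 35 of CON and UV, 23 of CON and Rux and 24 of UV and Rux, at most 0.342% of the smaller library.

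Cytokines such as interleukin 6, the interferons, growth hormone and prolactin signal through receptors bound to Janus kinases (JAKs), which phosphorylate STAT transcription factors. STATs in turn induce several SOCS genes, whose proteins bind receptors or JAKs through an SH2 domain and recruit a Cullin 5 ubiquitin ligase through a SOCS box, and so end the signal. SOCS1 and SOCS3 can also inhibit the kinase itself through a short kinase inhibitory region, and both are known in skin for restraining interferon and interleukin 6 responses. Cish and Socs2 are classical targets of STAT5, while Socs4 to Socs7 have longer amino-terminal parts and weaker links to cytokine induction.

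STAT dimers bind the letters TTCNNNGAA, which read the same on both strands. This motif was searched in windows of 300 bases, 250 before and 50 after the annotated start, in a RefSeq table on GRCm38.p6, which held a window for 4 of the 8 genes, Cish, Socs1, Socs3 and Socs4. The motif occurred in 8.30% of all 32851 windows and at least 2 times in 0.457%. The Socs3 window held 1 match and the Cish window 2, which are printed in capitals because these genes are the inducible members with a match. The windows of Socs1 and Socs4 held none, which says only that these letters are not in those 300 bases.
Socs3, chr11:117969477-117969546, minus strand, the match from 154 to 146 bases before the start: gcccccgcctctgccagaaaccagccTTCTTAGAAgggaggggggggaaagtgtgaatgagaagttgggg
Cish, chr9:107296655-107296684, plus strand, matches at bases 1 to 9 and 12 to 20 from the start, within the first exon: agttTTCCTGGAAagTTCTTGGAAatctgt

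In GENCODE M21 on GRCm38, Socs1 (ENSMUSG00000038037) lies on chromosome 16 from 10782240 to 10785536 and Socs3 (ENSMUSG00000053113) on chromosome 11 from 117966079 to 117970047, both on the minus strand. Cish (ENSMUSG00000032578) lies on chromosome 9 from 107296026 to 107302784 on the plus strand, and Socs2 (ENSMUSG00000020027) on chromosome 10 from 95385362 to 95417180 on the minus strand. For Socs3 and Cish the RefSeq starts used for the windows lie inside these GENCODE spans, and so do the printed matches. Their positions above therefore hold for the RefSeq starts only. Socs6 shares its strand with 2 unnamed gene models inside its span, so its reads could be split between them, and its values are uncertain for that reason.

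Cells were grouped by clusters and named from markers, "FB-like" and so on, with fibroblasts as FB, keratinocytes of any layer as EPI, lymphatic and vascular endothelium as LEC and VEC, pericytes as PCY, Schwann cells as SCH, lymphocytes as LYM, myeloid cells as MYE, mast cells as MC, melanocytes as MEL, neutrophils as NEU, myogenic progenitors as MP and skeletal muscle as SKM. These 13 lineages had at least 20 cells in each library, and the first 8 of them, called the larger lineages, at least 100. No member was among the variable genes that made these clusters. For each lineage and library the UMIs of a gene were added up and divided by all UMIs of those cells to give CPM, and intervals are exact 95% intervals that cover counting error only. Differences are log2 ratios of these CPM values with 0.5 UMI added to each sum, and a pair of gene and lineage counted as measured with at least 50 UMIs in the 2 libraries together. A 3' UMI count is not scaled to transcript length, so levels are compared between lineages and libraries and not between genes.

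Socs3, induced chiefly by STAT3, had the largest differences between libraries of all members in FB-like cells. It stood there at 913 CPM (901 to 926) in CON, 431 CPM (425 to 438) in UV and 131 CPM (128 to 134) in Rux. CON was thus highest and Rux lowest, with intervals that did not overlap, and the log2 ratio was −1.08 (−1.11 to −1.05) for UV over CON and −1.72 (−1.76 to −1.68) for Rux over UV. In LEC-like cells Socs3 was at 1648, 878 and 396 CPM in CON, UV and Rux, with log2 ratios of −0.91 and −1.15. In EPI-like cells it was at 116, 99.5 and 35.2 CPM, so the difference between UV and Rux (−1.50) was far larger than that between CON and UV (−0.23). The latter differed between layers. UV over CON was −0.52 (−0.81 to −0.22) in cells with hair follicle markers and −0.98 (−1.49 to −0.55) in those with suprabasal markers. The suprabasal value rested on 40 UMIs in UV, from 2 clusters in other proportions than in CON, as given below. Clusters named from basal markers went both ways, as given below.

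VEC-like and PCY-like cells showed smaller steps. In VEC-like cells Socs3 was at 903 CPM in CON and 860 in UV, a difference within counting error, and at 435 in Rux, a log2 ratio of −0.98 that lay just inside 2-fold. In PCY-like cells it was at 834, 574 and 401 CPM. LYM-like cells had 107, 88.8 and 71.1 CPM, and both of their intervals for the ratio reached 0.

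Some lineages did not show the lower level in Rux. SCH-like cells kept Socs3 at 855, 1004 and 1008 CPM, with a log2 ratio of Rux over UV of 0.01 (−0.19 to 0.20), and had the highest Socs3 level of the 8 larger lineages in UV and in Rux. MYE-like cells had 223, 192 and 280 CPM, a log2 ratio of Rux over UV of 0.54 (0.37 to 0.71). These MYE-like cells came from 2 clusters in different proportions. A cluster led by Chil3 and Msr1, genes of macrophages, held 73, 97 and 303 cells and had 278, 218 and 330 CPM of Socs3. The other cluster, led by immunoglobulin genes such as Ighg2b and Igkc although its name rests on myeloid markers, held 204, 143 and 145 cells and had 200, 177 and 179 CPM. NEU-like cells had 32, 4 and 125 UMIs of Socs3, too few in UV for a narrow interval (0.65, −0.58 to 2.71, for Rux over UV).

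The order of the lineages changed with the library. In CON, LEC-like cells had the highest Socs3 level of the 8 larger lineages, followed by FB-like, VEC-like, SCH-like and PCY-like cells, whose neighbouring intervals overlapped. In UV, SCH-like cells came first, LEC-like and VEC-like cells overlapped behind them, and PCY-like and FB-like cells followed. In Rux, SCH-like cells were again first, and FB-like cells stayed behind VEC-like, PCY-like and LEC-like cells as in UV. MYE-like cells now lay above FB-like cells too, and only LYM-like and EPI-like cells lay below FB-like cells.

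**Figure D1:**
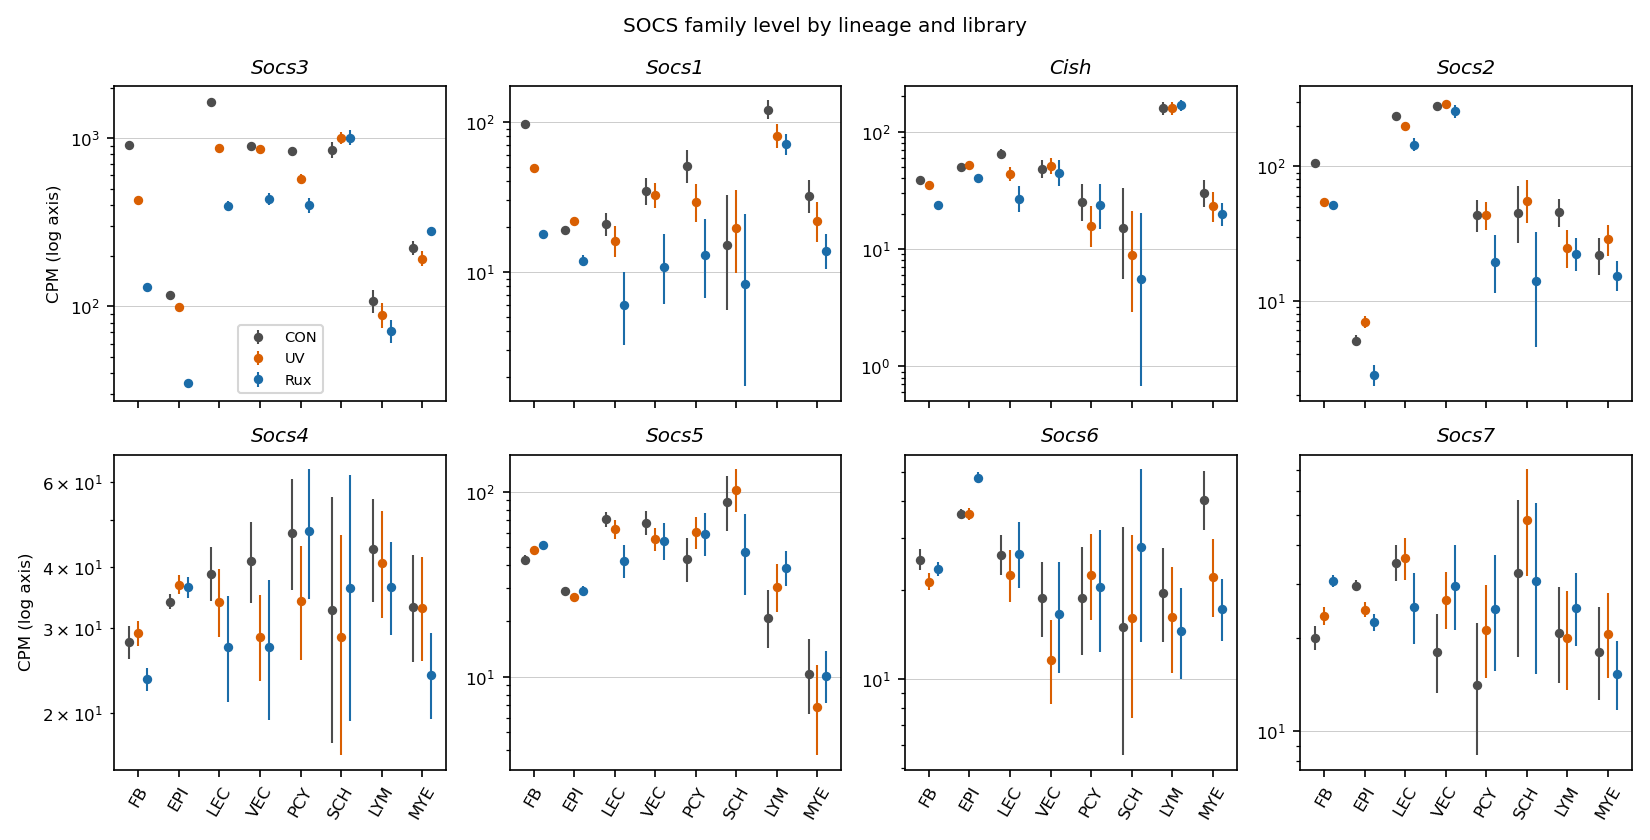
Level of each SOCS family gene in CPM in CON, UV and Rux for each lineage, on a log axis, with exact Poisson 95% intervals as bars that cover counting error only. Socs3 in FB-like cells steps down from 913 to 431 to 131 CPM, whereas Socs3 in SCH-like cells stays between 855 and 1008 CPM.

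In FB-like and LEC-like cells the share of cells with a Socs3 UMI moved the same way as its level. After each cell was thinned to 2000 UMIs, 60.3% (58.6% to 62.0%) of 3248 FB-like cells of CON, 40.4% (39.0% to 41.8%) of 4888 of UV and 19.7% (18.6% to 20.8%) of 4891 of Rux held at least 1 UMI. Unthinned shares were 76.5%, 65.3% and 50.2%, at median depths of 6124, 7332 and 9961 UMIs. Thinned shares in LEC-like cells were 75.4%, 63.4% and 36.2%, and in SCH-like cells 74.7%, 65.9% and 57.6%. No lineage is known to lack Socs3. MEL-like cells, with 7.55% in CON, 9.68% in UV and 2.78% in Rux, had the lowest of the thinned shares in each library. These shares rested on 12 of 159, 6 of 62 and 1 of 36 cells. The intervals in UV (3.6% to 19.9%) and Rux (0.07% to 14.5%) overlapped those of EPI-like cells, so the rank is uncertain there. The part of free RNA in these shares was not tested.

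Socs1, which restrains interferon and gamma-chain cytokine signals, was highest in LYM-like cells in each library, at 121, 81.0 and 70.6 CPM in CON, UV and Rux. The LYM-like cells of CON included a cluster led by Olfm3 and Trdc that held 90 cells of CON against 2 of UV and 1 of Rux and had 176 CPM of Socs1 in CON. In FB-like cells Socs1 was at 96.3 CPM (92.4 to 100) in CON, 49.1 (47.0 to 51.4) in UV and 17.7 (16.6 to 18.9) in Rux, with log2 ratios of −0.97 and −1.47. The 3 intervals did not overlap, and FB-like cells were next to LYM-like cells among the 8 larger lineages in all 3 libraries. In VEC-like cells the values were 34.5, 32.3 and 10.8 CPM, with a log2 ratio of Rux over UV of −1.54 (−2.46 to −0.79). These cells came from 2 clusters in different proportions. The cluster led by Cytl1 and Sele held 294, 209 and 99 cells and had 26.2, 27.4 and 9.4 CPM, while the cluster led by Iglc2 and Gpihbp1 held 111, 265 and 82 cells and had 69.5, 39.2 and 14.0 CPM. Rux was lowest in both, although in the latter its interval touched that of UV. PCY-like cells had 51.0, 29.2 and 12.9 CPM, and LEC-like cells 20.8, 16.1 and 6.0 CPM from 129, 72 and 14 UMIs.

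EPI-like cells had 18.9 CPM of Socs1 in CON, 21.8 in UV and 11.9 in Rux. They were the lineage where Socs1, summed over all layers, lay above CON in UV beyond counting error, by 0.21 (0.09 to 0.32). In the EPI-like cells with hair follicle markers UV lay below CON, by −0.59 (−0.90 to −0.28). In each cluster named from basal keratinocyte markers the intervals of CON and UV overlapped, and cells with suprabasal markers had 1 UMI of Socs1 in UV. EPI-like cells too were lower in Rux, by a log2 ratio of −0.87. Across the lineages where Socs1 was measured, Rux lay below UV in 7 of 8, with a median of −1.0, and MC-like cells were the exception at 0.01.

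Cish, a target of STAT5 that restrains interleukin 2 and T cell receptor signals, was highest in LYM-like cells among the 8 larger lineages. It stood at 157, 159 and 167 CPM in CON, UV and Rux, with a log2 ratio of Rux over UV of 0.07 (−0.16 to 0.31), a difference within counting error. A LYM-like cluster led by Il17a, Cd6 and Icos carried most of it, at 261, 214 and 205 CPM. MC-like cells had 303, 184 and 229 CPM, but from 27 UMIs in CON. The 6 fibroblast markers summed to 7564, 688 and 807 CPM in MC-like cells, against 33310 CPM in FB-like cells of CON, and their part in the MC-like values was not tested. In FB-like cells Cish was at 38.6, 35.2 and 23.5 CPM, in EPI-like cells at 49.9, 52.0 and 40.1 CPM, and in LEC-like cells at 64.0, 43.7 and 26.9 CPM. These 3 lineages had lower values in Rux than in UV beyond counting error, by −0.58, −0.38 and −0.69 in log2, none of them 2-fold.

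Socs2, which restrains growth hormone signalling, was highest among the 8 larger lineages in VEC-like cells, at 280, 292 and 257 CPM in CON, UV and Rux. LEC-like cells came next in each library, at 238, 200 and 145 CPM. In FB-like cells Socs2 was at 105 CPM (101 to 109) in CON and 54.6 (52.4 to 57.0) in UV, a log2 ratio of −0.94, and at 52.0 (50.1 to 53.9) in Rux. UV and Rux overlapped there, so Socs2 differed between irradiated and unirradiated fibroblast-like cells and hardly between UV and Rux, unlike Socs3 and Socs1. EPI-like cells had only 5.0, 6.9 and 2.8 CPM, with log2 ratios of 0.46 for UV over CON and −1.31 for Rux over UV. The latter was not shared by cells with hair follicle markers, at 0.31 (−0.41 to 1.05) from 31 and 37 UMIs. A cluster led by Adamts19, whose name is in doubt as given below, held 127 of the 354 UMIs of UV and 9 of the 117 of Rux. MC-like cells had 426, 268 and 243 CPM from 38, 115 and 154 UMIs.

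Within the EPI-like cells 4 clusters were named from basal keratinocyte markers, and they did not share 1 order of CON and UV. Basal keratinocytes are the dividing layer from which the epidermis is renewed. The cluster led by Il20ra, Fcgbp and Col17a1 held 473, 25 and 74 cells of CON, UV and Rux and had 426, 316 and 52.9 CPM of Socs3. A cluster led by Fcgbp, Krt14 and Hist1h2ab held 71, 75 and 52 cells and had 227, 304 and 55.7 CPM, and a cluster led by Fhod3 and Kcnb2 held 19, 57 and 146 cells and had 152, 218 and 102 CPM. UV was thus below CON in the first and above it in the others, with overlapping intervals in the last, while Rux was lowest in all 3.

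The largest of the 4, led by Adamts19 and Gm973, held 633, 222 and 111 cells. Its 10 leading genes included Lgr5 and Lhx2, which are known from hair follicle stem cells, and none of the basal markers, so its name is in doubt and the 4 clusters were not added up. Socs3 was at 109, 308 and 199 CPM in it, Cish at 34.9, 54.4 and 29.2 CPM, and Socs2 at 9.6, 26.2 and 4.5 CPM from 152, 127 and 9 UMIs. UV was highest for all 3 genes there.

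Socs4, Socs5, Socs6 and Socs7 had 1 pair of gene and lineage with a 2-fold difference among the 13 lineages. Each was measured in 7 to 9 lineages per comparison. Over all genes 3.9% of pairs were 2-fold higher and 3.19% lower in UV than in CON. For Rux over UV these shares were 1.79% and 3.17%. The count of 1 therefore does not set these genes apart from all genes. Socs4, which is known to act on the epidermal growth factor receptor, lay between 23.5 and 47.4 CPM in the 8 larger lineages of all 3 libraries, and its largest log2 ratio of UV over CON was −0.51 (−0.93 to −0.11), in VEC-like cells. In FB-like cells it was at 28.0, 29.2 and 23.5 CPM, with a log2 ratio of Rux over UV of −0.32 (−0.43 to −0.20). Rux lay below UV in 7 of the 8 lineages where Socs4 was measured, with the interval below 0 in 1. Socs5, also linked to that receptor, was at 42.7, 48.5 and 51.8 CPM in FB-like cells. In SCH-like cells Socs5 was at 87.8, 102 and 47.3 CPM from 35, 57 and 17 UMIs, a log2 ratio of Rux over UV of −1.08 (−1.98 to −0.31).

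Socs6, a regulator of receptor tyrosine kinases, and Socs7, which binds adaptor proteins, went upward in Rux in some lineages. Socs6 was at 36.3, 36.2 and 48.0 CPM in EPI-like cells, where Rux exceeded UV by 0.41 (0.32 to 0.50) in log2, and at 79.5, 75.3 and 92.9 CPM in MEL-like cells, where the interval reached 0. Socs7 was at 20.05, 23.6 and 30.6 CPM in FB-like cells, with log2 ratios of 0.23 (0.07 to 0.40) and 0.38 (0.26 to 0.49). In EPI-like cells Socs7 was at 29.6, 24.7 and 22.5 CPM, the opposite order. Larger ratios stood in the KS-like cells, the EPI-like cells with suprabasal markers, which numbered 264, 20 and 41. Socs5 was there at 8.2, 32.5 and 10.6 CPM from 51, 10 and 8 UMIs, 2.04 (0.84 to 2.97) higher in UV than in CON in log2. Socs6 was at 40.7, 19.5 and 83.5 CPM from 252, 6 and 63 UMIs, 1.99 (0.90 to 3.60) higher in Rux than in UV. One cluster, led by Krt77 and Skint5, supplied 248, 5 and 19 of these cells and another, led by genes of the cornified envelope such as Lce1m, 16, 15 and 22, so their makeup differed between the libraries.

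Over all pairs of member and lineage in the 13 lineages, 70 were measured for UV over CON. None was at least 2-fold higher in UV, beside 3.9% of all 89490 gene and lineage pairs, and 4 were at least 2-fold lower (5.71%), beside 3.19%. These 4 were Socs3 in FB-like cells, Socs3 in MC-like cells (−1.42, −2.13 to −0.66), Socs1 in MP-like cells (−1.48, −3.56 to −0.20) and Socs2 in MP-like cells (−1.11, −2.92 to 0.08, an interval that reached 0). Of these 4, 1 stayed at least 2-fold lower under all 6 alternative treatments of the data, Socs3 in MC-like cells, whose fibroblast markers were also higher in CON, as given above. Socs3 in FB-like cells was at −0.99 with median-of-ratios scaling. In MP-like cells, of which UV had 36, the fibroblast markers moved the other way, at 5606, 16000 and 15640 CPM in CON, UV and Rux, and the 6 myogenic markers summed to 1099, 662 and 821 CPM. The part of these differences in makeup in the MP-like ratios was not tested. Between UV and Rux 68 pairs were measured, of which none was 2-fold higher, beside 1.79% of 85331 pairs, and 12 were 2-fold lower (17.6%), beside 3.17%. They were Socs3 in FB-like, EPI-like, LEC-like and MP-like cells, Socs1 in FB-like, LEC-like, VEC-like and PCY-like cells, Socs2 in EPI-like, PCY-like and MEL-like cells, and Socs5 in SCH-like cells. The share of members 2-fold lower in Rux was thus several times that of all genes, and it rested on Socs1, Socs2 and Socs3 with 1 further pair. Of these 12, 4 stayed at least 2-fold lower under all 6 alternatives, Socs3 in FB-like and EPI-like cells and Socs1 in FB-like and VEC-like cells. The other 8 came under 2-fold, or were not measured, in at least 1 of them, and without doublet removal Socs3 in MP-like cells was at −0.59, Socs3 in LEC-like cells at −0.97 and Socs2 in EPI-like cells at −0.93. UV over CON and Rux over UV share the UV library, so a low or high value there enters both.

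In FB-like cells all 8 members were measured. For UV over CON 0 were 2-fold higher, beside 5.72% of 14552 genes, and 1 (Socs3) 2-fold lower, beside 4.56%, and the median log2 ratio of the members was −0.19 against −0.11 over all genes. In Rux 0 were 2-fold higher than in UV, beside 1.49% of 15250 genes, and 2 (Socs1 and Socs3) 2-fold lower, beside 4.86%, with a median of −0.19 against −0.0049.

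**Figure D2:**
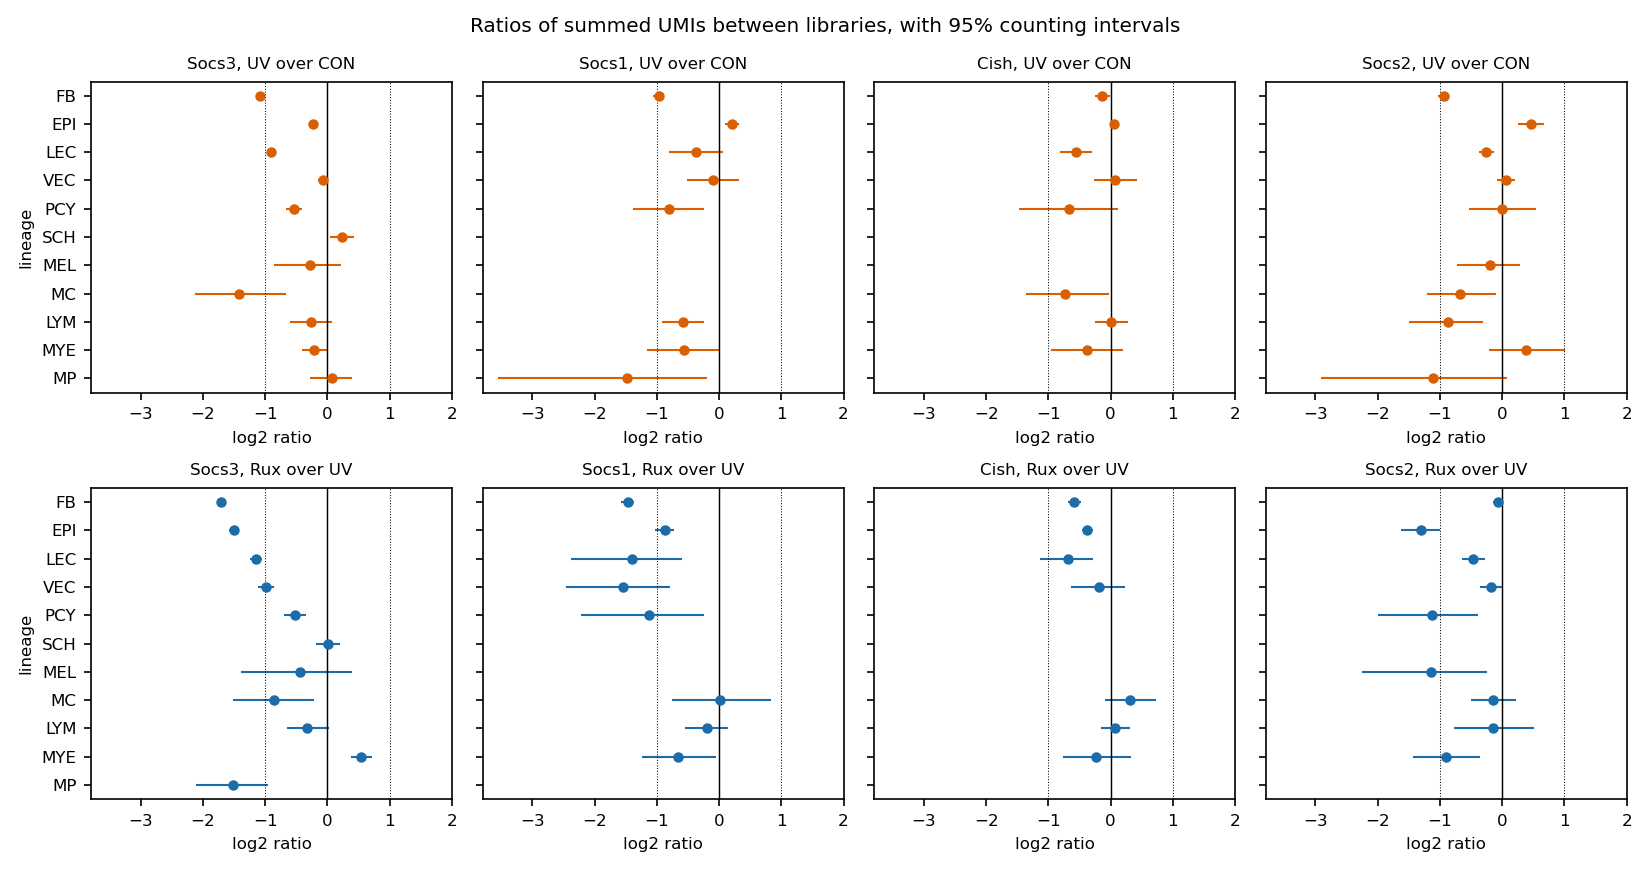
Log2 ratios of UV over CON and of Rux over UV for Socs3, Socs1, Cish and Socs2 in the lineages where each was measured. NEU-like and SKM-like cells are not drawn. Bars are exact conditional binomial 95% intervals that cover counting error only. Most values of Socs1, Socs2 and Socs3 for Rux over UV lie below 0. Their medians over all measured lineages were −1.0, −0.46 and −0.69. The values of Socs5, Socs6 and Socs7, which are not drawn, lay on both sides of 0. Socs4, also not drawn, lay below 0 for Rux over UV in 7 of 8 measured lineages, with a median of −0.23.

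The lower levels in Rux were present within clusters. The Rux over UV ratio of Socs3 lay below 0 in 30 of the 34 clusters where it was measured, with the interval below 0 in 28, and Socs1 in 26 of 27, with the interval below 0 in 20. Cish lay below 0 in 22 of 28 clusters. Socs6 lay below 0 in 6 of 25, with no interval below 0. For UV over CON the counts were 25 of 33 for Socs3, 17 of 25 for Socs1 and 13 of 26 for Cish. Only named clusters with at least 20 cells in both libraries were counted. The same counts were not made for all genes, so no background share stands beside them, and the intervals cover counting error only. Clusters of 1 lineage share their library, so these counts describe in how many clusters a difference was seen and are not replicates of it.

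FB-like cells were clustered again without any member among the genes used, which gave 13 subclusters. Subclusters with fewer than 20 cells in either library of a comparison were left out of the counts below, and no counts over all genes stand beside them. Socs3 was lower in Rux than in UV in 12 of the 12 subclusters counted, by log2 ratios between −3.30 and −0.86. Socs1 was lower in 10 of 10, between −3.38 and −0.75. Socs3 was lower in UV than in CON in 11 of 12. The exception, a subcluster led by Pde4c that also had the endothelial gene Pecam1 among its leading genes, had 270, 355 and 36.0 CPM of Socs3 in CON, UV and Rux. The subclusters were of different size in the 3 libraries. One led by Gadd45g, Zfp36, Cebpd and Egr1 held 1137, 368 and 81 cells, or 33.5%, 7.15% and 1.61% of FB-like cells, and had the highest Socs3 level in CON and UV, at 1670, 1343 and 174 CPM. Another, led by Saa3, Hp and Lcn2, held 0, 15 and 418 cells and had 96.3 CPM in Rux. With 15 cells in UV it was left out of the counts above. Its Socs3 level in UV was 639 CPM. Socs1 was not lower in Rux there, at 29.4 CPM in UV and 33.8 CPM in Rux, from 4 and 253 UMIs.

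With the subclusters weighted as in CON, the Socs3 ratio of UV over CON was −0.37 in place of −1.08 and that of Rux over UV −2.27 in place of −1.72. For Socs1 the weighted values were −0.40 and −2.34, and for Cish they were 0.16 in place of −0.13 and −0.92 in place of −0.58. These weighted values used 12 of the 13 subclusters, without the one led by Saa3, which had no cells in CON. It held 253 of the 994 UMIs of Socs1 in FB-like cells of Rux. The Gadd45g subcluster, large in CON, had 10 UMIs of Socs1 in Rux. Without the Gadd45g subcluster, a comparison chosen after the values were seen, Socs3 was at −0.57 and −1.44, and Cish at 0.18 and −0.45. The size of the Socs3 ratio of UV over CON therefore depended on how the subclusters were weighted, and its direction did not change in these comparisons. The Gadd45g subcluster also had the highest immediate-early level, at 43277 CPM in CON. Whether it is a kind of fibroblast or a state of response was not tested, so makeup and response cannot be told apart here. The direction of the small Cish difference between CON and UV turned in both. It did not turn, at −0.07, with subclusters made without immediate-early genes and weighted as in CON. That value rests on 11 of 14 such subclusters, without one led by Gadd45g that held 1040, 161 and 19 cells of CON, UV and Rux.

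**Figure D3:**
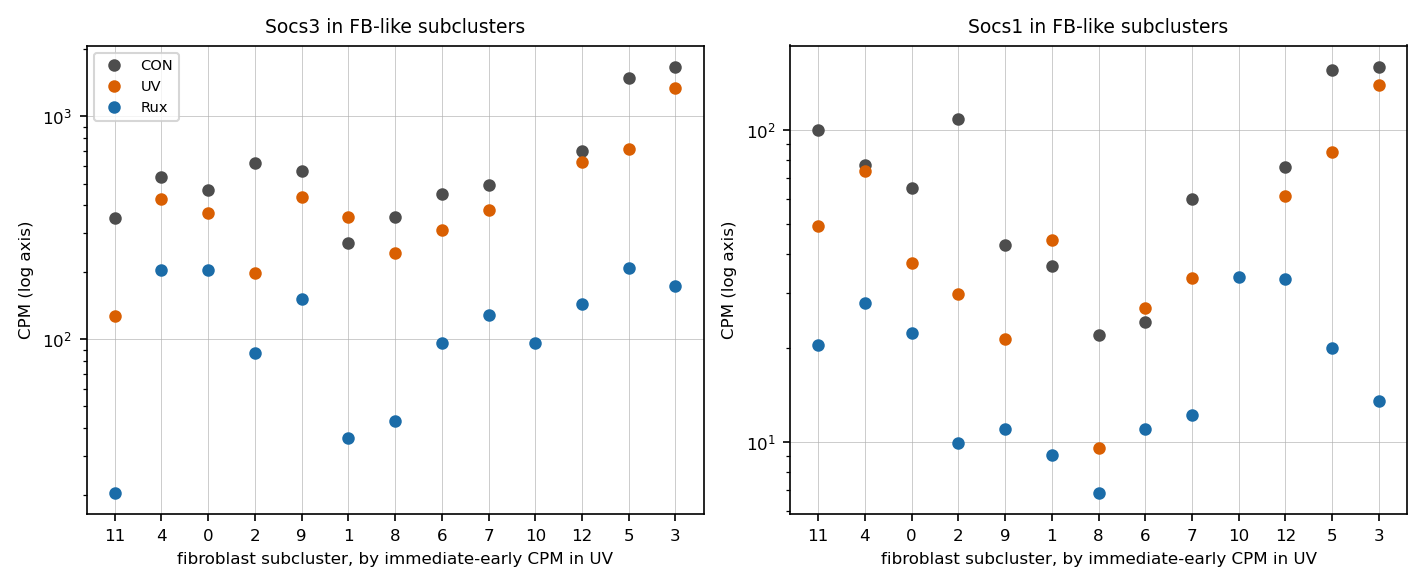
Socs3 and Socs1 levels in CPM in the subclusters of FB-like cells in CON, UV and Rux, on log axes and without intervals. Sums of fewer than 20 cells are not drawn. For Socs3, Rux lies lowest in each subcluster where another library is drawn. The subcluster led by Gadd45g reaches 1670 CPM of Socs3 in CON against 174 CPM in Rux.

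Genes of the immediate-early and stress response, which respond within minutes to mitogens and also to tissue dissociation, moved with the difference between CON and UV. In FB-like cells the summed level of a list of 22 such genes was 27153, 15467 and 16657 CPM in CON, UV and Rux. For UV over CON, 10 of the 22 were at least 2-fold lower and none 2-fold higher, with a median log2 ratio of −0.88. Egr1 (−1.52) and Zfp36 (−1.45) were lowest, while Klf4 (0.04) and Fosb (−0.01) were highest. Between UV and Rux none of the list was 2-fold changed, with a median of 0.14, Nr4a1 (0.98) and Egr3 (0.98) highest, and Atf3 (−0.34) and Ier3 (−0.32) lowest. In the 8 larger lineages the median of the list for Rux over UV lay between −0.11 and 0.25. The keratinocyte marker list in FB-like cells also moved with CON, at 352, 161 and 168 CPM summed over 8 genes, against 8617 CPM in EPI-like cells of CON. The part of either list in the Socs3 values was not tested.

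Cells were also divided by their own immediate-early level. Among FB-like cells with under 5000 CPM of the list, Socs3 was at 88.2, 105 and 38.8 CPM in CON, UV and Rux. From 5000 to 10000 CPM it was at 203, 196 and 115 CPM, and from 10000 to 20000 CPM at 451, 382 and 146 CPM. At 20000 CPM and above it was at 1380, 975 and 156 CPM. Socs3 thus climbed with the immediate-early level in all 3 libraries, from a lower start and to a lower level in Rux, where the upper 2 bins lay at 146 and 156 CPM. The top bin held 52.8%, 23.7% and 28.3% of FB-like cells. With the bins weighted as in CON, a comparison also chosen after the values were seen, the log2 ratio of Socs3 was −0.44 for UV over CON and −2.24 for Rux over UV, and that of Socs1 −0.51 and −2.08.

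The other members did not share this shape alike. Socs1 in FB-like cells climbed from 13.9 to 133 CPM between the lowest and the highest bin in CON and from 24.4 to 90.7 CPM in UV. In Rux it was at 12.8, 21.9, 18.8 and 13.2 CPM from the lowest to the highest bin, so it rose and then fell. Socs2 in the highest bin was at 137, 82.0 and 69.0 CPM, and in Rux it was at 45.1 CPM in the lowest bin. In EPI-like cells Socs3 climbed in all 3 libraries, from 28.0 to 384 CPM in CON, from 15.6 to 463 CPM in UV and from 7.4 to 171 CPM in Rux.

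**Figure D4:**
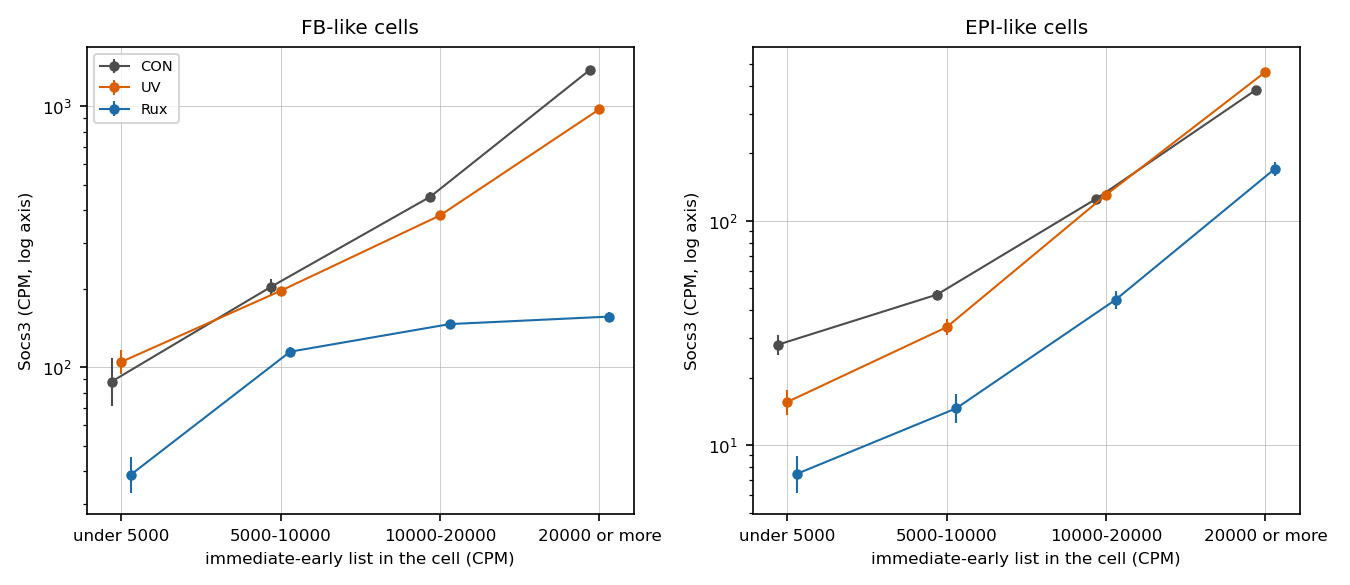
Socs3 level in CPM in FB-like and EPI-like cells of CON, UV and Rux, divided into bins by the summed CPM of 22 immediate-early and stress genes in each cell, with exact Poisson 95% intervals that cover counting error only. Socs3 climbs in all 3 libraries of both lineages, and in FB-like cells of the highest bin it reaches 1380 CPM in CON and 156 CPM in Rux.

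The rest of the pathway was described in FB-like cells by lists of ligands, receptors, kinases, STATs, inhibitors and targets. Of 16 ligands 11 were measured. For UV over CON, 2 were 2-fold higher, the granulocyte-macrophage factor Csf2 (3.6, 12.3 and 39.1 CPM in CON, UV and Rux) and Il10 (1.41 in log2), and 1 was 2-fold lower, the epithelial alarmin Tslp (−1.37), with Il15 next (−0.69). For Rux over UV, Csf2 was higher again (1.66 in log2), with the gp130 ligand Lif next (0.63), and Il6 was lower, at 1073, 1122 and 472 CPM (−1.25), with the lymphocyte growth factor Il7 next (−0.46). Il6, which signals through JAK1 to STAT3, thus had similar levels in CON and UV and a lower one in Rux.

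Of 23 receptors 19 were measured, and the median log2 ratios were −0.03 and 0.09. For UV over CON, 2 were 2-fold higher, Csf2rb (1.50) and Il31ra, the receptor of the itch cytokine interleukin 31, at 29.4, 70.3 and 26.1 CPM in CON, UV and Rux (1.26), and Il2rb (−0.97) and Il2rg (−0.72) were lowest. In Rux, relative to UV, Prlr (−1.45) and Il31ra (−1.43) were 2-fold lower, and Ifngr1 (0.55) and Ifngr2 (0.53), the chains of the interferon gamma receptor, were highest.

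All 4 JAKs stayed within 2-fold. Jak1 was at 590, 608 and 452 CPM and Jak2 at 122, 134 and 131 CPM, the highest ratios of UV over CON being those of Jak2 (0.14) and Jak1 (0.04) and the lowest those of Jak3 (−0.57) and Tyk2 (−0.55). For Rux over UV Tyk2 (0.29) and Jak3 (0.27) were highest, and Jak1 (−0.43) and Jak2 (−0.03) lowest. Of the 7 STATs 6 were measured between CON and UV, and none was 2-fold changed, with Stat5b (0.31) and Stat5a (0.15) highest and Stat3 at −0.39. For Rux over UV 1 was 2-fold lower, Stat2, a transcription factor of type I interferon signalling, at 55.9, 47.7 and 20.7 CPM (−1.20). Stat3 was at 503, 383 and 279 CPM (−0.45), while Stat6 (0.41) was highest.

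The partners of the SOCS box, Cul5, Rnf7, Elob and Eloc, which form the ubiquitin ligase, stayed within 2-fold in both comparisons. For UV over CON Elob (−0.12) and Cul5 (−0.16) were highest and Rnf7 (−0.49) and Eloc (−0.35) lowest, and for Rux over UV Elob (0.06) and Rnf7 (0.03) were highest and Eloc (−0.28) and Cul5 (0.01) lowest. Of 10 other inhibitors of the pathway, 1 was 2-fold higher in UV, the phosphatase Ptpn6 at 0.60 and 1.24 CPM (1.01), followed by Ptpn11 (0.15), and Pias3 (−0.54) and Pias4 (−0.27) were lowest. Between UV and Rux none of these passed 2-fold. Pias1 (0.37) and Pias4 (0.36) were highest, and Usp18, an interferon-induced inhibitor of the interferon receptor, (−0.55) and Ptpn2 (−0.35) lowest. The lower levels in Rux of Socs1 and Socs3 were thus not matched by a 2-fold difference in the other inhibitors.

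Of 10 other STAT targets, all lay below 0 for UV over CON, with 3 at least 2-fold lower and a median of −0.54. Irf1, an interferon-induced factor, was at 651, 215 and 184 CPM in CON, UV and Rux (−1.60), and Junb (−1.42) and Cebpd (−1.20) were the others, while Pim1 (−0.06) and Igf1 (−0.13) were highest. Junb is also one of the immediate-early genes. For Rux over UV 1 was 2-fold lower, the interferon-induced Gbp2, at 135, 105 and 47.1 CPM (−1.16), followed by Cebpd, at 1508, 656 and 353 CPM (−0.89), and Mcl1 (0.41) and Pim1 (0.01) were highest. The median of the list for Rux over UV was below 0 in 7 of the 8 larger lineages and 0.08 in LYM-like cells.

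**Figure D5:**
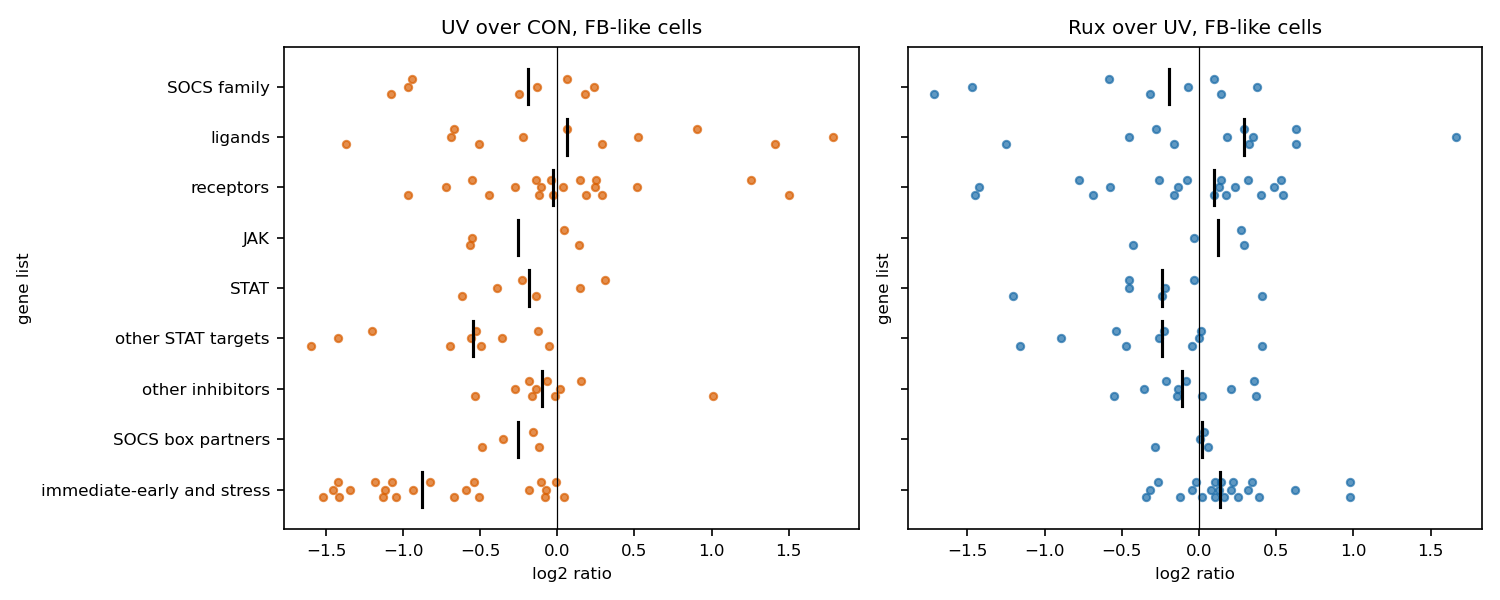
Log2 ratios of UV over CON and of Rux over UV in FB-like cells for the genes of each pathway list and the 8 SOCS family genes, 1 point per measured gene with the median of each list marked. For Rux over UV Socs1 and Socs3 lie below −1, as do Il6, Stat2, Gbp2, Il31ra and Prlr, while the JAKs and the SOCS box partners stay within 2-fold.

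Likeness was described by Pearson's r of log2(CPM + 1) over the 24 sums of 8 lineages in 3 libraries, among 9692 genes. The points share libraries and depth, so r is a description. Socs3 was most like Sbno2 (0.91), Sertad1 (0.89), Irf1 (0.88), Flot1 (0.87) and Slc10a6 (0.86). Socs2 was most like Nck1 (0.90), Tgoln1, Eng, Tmem88 and Stmn2 (0.88), Cish like Ppp1cc (0.92), Mknk2, Pacs1, Sbf1 and Riok1 (0.86), and Socs5 like Csgalnact1 (0.90), Ddx50, Ahdc1, Hook3 and Nbea (0.89). Weaker likeness was found for Socs1 with Nup98 (0.81), Abcb1b, Panx1, Adpgk and Stn1 (0.76), Socs6 with Map7 (0.82), Ifi202b, Nectin1, Serpinb2 and Ewsr1 (0.71), Socs4 with Azi2 (0.79), Zfp212, Cnnm4, Med14 and Pcnt (0.72), and Socs7 with Kdm3a (0.76), Foxj3, Napepld, Fxyd6 and Nudt3 (0.75). Among the members the closest pairs were Socs2 with Socs3 (0.68) and Socs1 with Cish (0.61), whereas Socs1 and Socs3 had an r of −0.15 over these points.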

How the data were processed

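For each library the authors deposited raw UMI counts per gene and cell, with the cells called by Cell Ranger and no normalization. The labels name Cell Ranger 6.1.2, mm10 and Seurat 5.3.0, whereas the file headers name Cell Ranger 7.0.0. Cells were kept if they had 200 or more genes and no more than 10% of mitochondrial UMIs, and the cells with the highest Scrublet scores (scanpy 1.11.5, Python 3.11.15) were removed at 0.8% per 1000 cells, which took out 1269, 1128 and 923 cells of CON, UV and Rux. Deposited totals were 165337289, 133972374 and 131570327 UMIs. Seurat 5.3.0 in R 4.3.3 clustered all cells (2000 variable genes, 30 principal components, resolution 1.5, no batch correction). Clusters were named from at least 3 markers detected in 10% of the cells, and 6 of 46 clusters stayed unnamed. FB-like cells were clustered again on 20 components at a resolution of 0.5.

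Summed UMIs were scaled to CPM, with exact Poisson intervals for levels, exact conditional binomial intervals for ratios and Clopper-Pearson intervals for shares of cells thinned to 2000 UMIs (numpy 2.4.6, scipy 1.17.1, pandas 2.3.3, figures with matplotlib 3.10.9). With 1 library per condition no test across samples was made, and cells were not treated as replicates. Of the gene identifiers, 32158 were found in GENCODE M21. Poisson counts were simulated at the depth of FB-like cells for UV over CON, with 200 of 14552 genes changed 2-fold. The direction was recovered for 100% of the changed genes, and 95.6% of the intervals contained the simulated ratio. Such counts hold no variation between cells, mice or libraries beyond counting error. The simulation thus checks only how the intervals were calculated and cannot show how far the ratios would hold in other libraries.

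The members and the gene lists were chosen with earlier results of these data known. The genes named are the members in every lineage, the 5 genes most like each member, and from each list the 2 highest and the 2 lowest ratios in FB-like cells. 1 gene that this rule names is not reported here. Leading genes of clusters, and Cebpd for UV over CON, were chosen with their values known. Results were recomputed with a strict filter on cells, without doublet removal, at a resolution of 0.8, with median-of-ratios scaling, totals without haemoglobin, keratin and mitochondrial genes, equal weight per cell, other minimum counts and folds, and other makeups of the FB-like cells. Histology and qPCR of the study were not used here.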

Additional observations from a re-analysis of the deposited data

How the results depend on the processing

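Each pair of member and lineage was recomputed under 6 alternatives, and no called pair changed sign under any of them. Between 2 and 18 of the 138 pairs changed sign, none of them 2-fold changed, and between 0 and 9 called pairs came under 2-fold, most often without doublet removal. Beside the 0 pairs 2-fold higher and 4 lower in UV than in CON, and 0 higher and 12 lower in Rux than in UV, the counts moved as follows. Without doublet removal there was 1 pair 2-fold higher in UV, and 7 were 2-fold lower in Rux. Of the 12, these 7 held only Socs3 in FB-like and EPI-like cells and Socs1 in FB-like and VEC-like cells. The rest of the 7 were pairs not called before. At a resolution of 0.8 there were 2 pairs lower in UV, since no MP-like lineage was named there. With median-of-ratios scaling, or with a minimum of 20 UMIs, 1 pair was 2-fold higher in Rux. At a fold of 1.5 there were 15 pairs lower in UV and 1 higher in Rux. The pairs lower in Rux at that fold were the 12 and some more. These were Socs3 in VEC-like and MC-like cells, Socs1 in EPI-like and MYE-like cells, Socs2 in MYE-like cells and Cish in LEC-like cells. Shares over all genes are not given for these counts, so the pairs gained by the 2 comparisons at this fold cannot be set against each other. The cause of the other moves was not tested. The Socs3 ratios in FB-like cells ranged from −1.12 to −0.99 for UV over CON and from −1.79 to −1.62 for Rux over UV over these 6 alternatives. With FB-like subclusters made without immediate-early genes and weighted as in CON they were −0.51 and −1.64. Only 11 of these 14 subclusters were used, and one led by Gadd45g, with 1040, 161 and 19 cells of CON, UV and Rux, was left out. The weighted Socs3 level of CON was then 598 CPM. No member was among the 2000 variable genes, so leaving members in changed nothing. No paired analysis was possible because each condition had 1 library and no result came from a test. MP-like, SKM-like and NEU-like cells of UV carried at most 111709 UMIs, which limits their ratios.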
